A study of Mus musculus with 6 samples.

Results

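The 10 genes described here belong to vascular endothelial growth factor (VEGF) and hypoxia signalling and were measured in the retina of mice that carry the C234W substitution in Elovl2, an elongase of long-chain polyunsaturated fatty acids. They were the ligands Vegfa, Vegfb, Vegfc and Pgf, the co-receptors Nrp1 and Nrp2, the hypoxia-inducible factor subunits Hif1a and Epas1, and the prolyl hydroxylases Egln1 and Egln3. They were taken by gene symbol from the deposited table, and each of the 10 had 1 gene model among the 25124 of the table. All 10 passed the filter on low counts, among 14685 genes that did. The retinas came from C57BL/6J mice 4 months of age, 3 libraries labelled wild type and 3 labelled Elovl2 C234W, and polyadenylated RNA was sequenced from the bulk tissue. No group received an agent. The zygosity of the C234W allele, the sex of the animals and any pooling of animals are not given in the sources used here.

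VEGF ligands are secreted proteins that act through receptor tyrosine kinases on endothelial cells, and the neuropilins bind both these ligands and class 3 semaphorins as co-receptors. Transcription of Vegfa is raised by hypoxia-inducible factors (HIFs), dimers of an oxygen-regulated alpha subunit and a stable partner. When oxygen is present, prolyl hydroxylases modify the alpha subunit, and the von Hippel-Lindau ubiquitin ligase then marks it for degradation, so HIF activity is set largely at the protein level and not by the amount of its transcript. In the retina, Müller glia, astrocytes and the adjoining pigment epithelium are known sources of VEGF-A, while photoreceptors make the outer retina one of the most oxygen-demanding tissues.

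The column names of the table are WT1A, WT2A and WT2B for wild type, and FS3A, FS3B and FS5A, which were taken as C234W by elimination. The direction of every difference rests on this. The libraries held 14184093 to 19298613 counts in genes, so that 1 count was worth 0.0474 to 0.0736 counts per 1000000 (CPM, scaled by TMM). WT2A and WT2B share a number in their names, as do FS3A and FS3B, and no source says that each library was a separate animal, so the p-values cover only the spread seen among these 6 libraries, which may be technical. Rod markers were the most abundant of the marker lists, with summed levels of 58710 CPM or more in every library, as the label of retina implies. WT1A stood apart: 6 pigment epithelium markers (Rpe65, Best1, Ttr, Rgr, Lrat and Rdh5) summed to 758 CPM in it, against 77.4 to 183 CPM in the other 5 libraries. The sum came mostly from Ttr (327 CPM in WT1A) and Rgr (287 CPM), and Rpe65, Lrat and Rdh5 were also highest in WT1A. Best1 was not, at 0.399 CPM in WT1A and 0.766 to 1.04 CPM in C234W. Elovl2 itself was measured at 142, 138 and 136 CPM in wild type and at 82.0, 90.1 and 116 CPM in C234W (log2 fold change -0.53, SE 0.16, edgeR adjusted p = 0.101). A missense allele may leave its transcript unaltered, so these values do not check the labels.

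The HIF dimer binds DNA at a core written ACGTG or GCGTG. The 250 bases before the start site of the counted gene model were searched for both words, on both strands, in the 9 members with an entry in the RefSeq promoter set (build GRCm38.p6). ACGTG was found in 3 of the 9, Hif1a, Egln1 and Egln3, and one word or the other in 7 of the 9. Over all 32851 windows in the set, 16.6% held ACGTG, 28.2% held GCGTG and 38.6% held at least 1 of them. Those windows include further start sites of the same gene, unlike the 9 counted here. They were not matched for G and C content, which was 50.8% to 86.0% in the 9. The windows at the start sites of the counted Vegfa and Vegfc models held neither word, which says only that these letters are not in these windows. A second Vegfa entry, for a start site further into the gene, held 1 match to each word. Windows are shown 5′ to 3′ on the strand of the gene for Nrp1 and Vegfb, the members with the smallest p in the comparison of genotypes, and for Hif1a and Egln3, with the core in capitals. A core on the other strand reads CACGT or CACGC. In Hif1a 2 of its 3 matches overlap, as the palindrome CACGTG read on each strand. A match is a description and not a measured binding site.
Nrp1, chr8:128358823-128359072, plus strand: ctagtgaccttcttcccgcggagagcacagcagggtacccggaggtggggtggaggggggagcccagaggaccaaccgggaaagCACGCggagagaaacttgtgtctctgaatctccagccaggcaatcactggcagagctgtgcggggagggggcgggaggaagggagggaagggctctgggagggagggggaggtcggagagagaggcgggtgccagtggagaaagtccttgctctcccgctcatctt
Vegfb, chr19:6987652-6987901, minus strand: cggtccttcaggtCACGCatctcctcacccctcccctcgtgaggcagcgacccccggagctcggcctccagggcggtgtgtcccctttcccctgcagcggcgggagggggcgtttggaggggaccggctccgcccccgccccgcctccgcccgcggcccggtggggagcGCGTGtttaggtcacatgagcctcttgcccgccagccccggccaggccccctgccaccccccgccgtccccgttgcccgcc
Hif1a, chr12:73907617-73907866, plus strand: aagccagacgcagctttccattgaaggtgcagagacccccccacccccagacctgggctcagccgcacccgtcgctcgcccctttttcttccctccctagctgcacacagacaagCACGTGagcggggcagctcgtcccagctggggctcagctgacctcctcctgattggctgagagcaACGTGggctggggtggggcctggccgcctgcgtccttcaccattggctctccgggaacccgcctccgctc
Egln3, chr12:54203875-54204124, minus strand: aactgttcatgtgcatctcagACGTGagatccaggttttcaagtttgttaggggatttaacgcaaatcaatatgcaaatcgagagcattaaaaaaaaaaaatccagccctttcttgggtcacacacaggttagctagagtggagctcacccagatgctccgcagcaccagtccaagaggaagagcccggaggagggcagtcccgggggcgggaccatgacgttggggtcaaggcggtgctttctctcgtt

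In Egln1 the ACGTG lay 68 bases before the start site, in the stretch of 25 bases that is printed here because Egln1 is itself a known HIF target.
Egln1, chr8:124949308-124949332, minus strand: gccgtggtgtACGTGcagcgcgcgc

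The members fell into a high and a low class by level. Levels were compared between genes as CPM per kilobase of the counted transcript, over the 6 libraries. Hif1a was the highest, at a mean of 136.9 CPM per kilobase, and its lowest library (125 CPM per kilobase) lay above the highest of any other member. Epas1 (50.4), Egln1 (43.6), Vegfb (42.3) and Vegfa (32.1 CPM per kilobase) followed, and neighbours among these 4 overlapped in range. Between Vegfa and the other 5 members there was a gap, with Vegfa at 24.0 CPM per kilobase or more in every library and the next, Nrp2, at 3.06 or less. Nrp2 (1.93), Egln3 (1.84), Pgf (1.17), Nrp1 (1.05) and Vegfc (0.797 CPM per kilobase) also overlapped from each to the next, so their order was not resolved. Vegfb stood above Vegfa in 5 of 6 libraries, with 51.1 ± 3.34 against 27.5 ± 3.43 CPM per kilobase in wild type (SD, n = 3 each). The exception was FS5A, where Vegfa was at 46.2 and Vegfb at 33.3 CPM per kilobase.

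**Figure D1:**
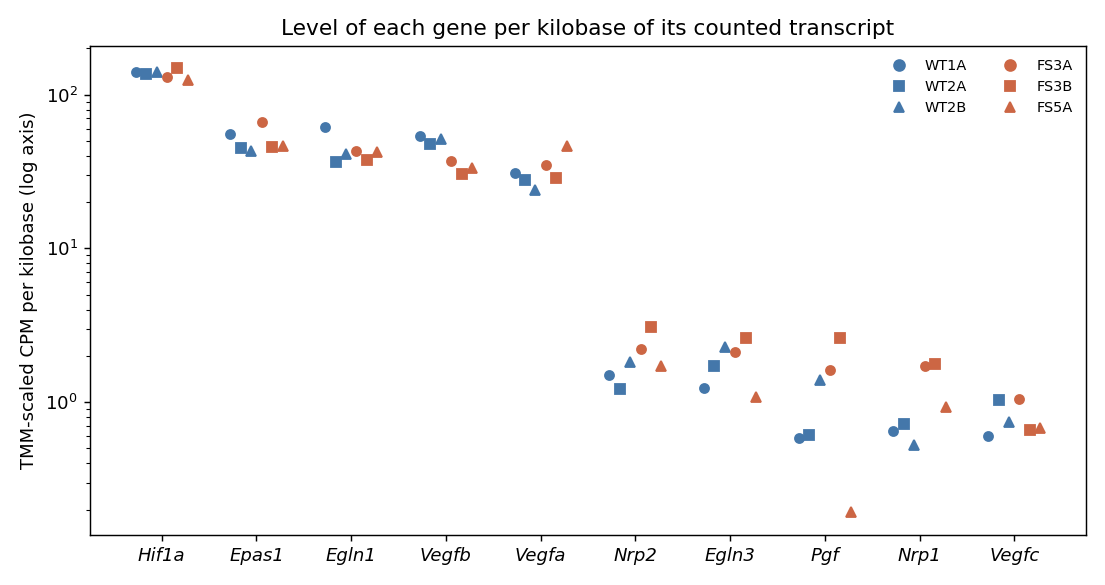
Level of each of the 10 genes in each library, as TMM-scaled CPM per kilobase of the counted transcript on a log axis, with wild type in blue and C234W in orange. Hif1a, Epas1, Egln1, Vegfb and Vegfa lay above 20 CPM per kilobase in every library, and the other 5 genes at 3.06 or below.

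None of the 10 members passed the test between genotypes (0 of 10 at an adjusted p under 0.05, from the quasi-likelihood test of edgeR with Benjamini-Hochberg adjustment over all 14685 genes), where 215 genes, or 1.46%, passed. Those 215 had adjusted p-values between 0.0484 and the threshold. At an unadjusted p under 0.05 there were 3 of 10 members, Vegfb on the lower side in C234W and Nrp1 and Nrp2 on the higher side; the share over all genes was 25.4%, with 11.9% higher and 13.5% lower. For 2 of the 10, Vegfb and Nrp1, the libraries of the genotypes did not overlap, against 29.1% of all genes. Both counts were near these background shares and give no result about the members. DESeq2 called 2 members, Vegfb and Nrp1, and 11.9% of all genes, and limma-voom called 0 members and 1.63% of all genes. The median log2 fold change of the members was 0.15, against 0.023 over all genes, and 6 of 10 lay above 0, against 52.0% of all genes.

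**Figure D2:**
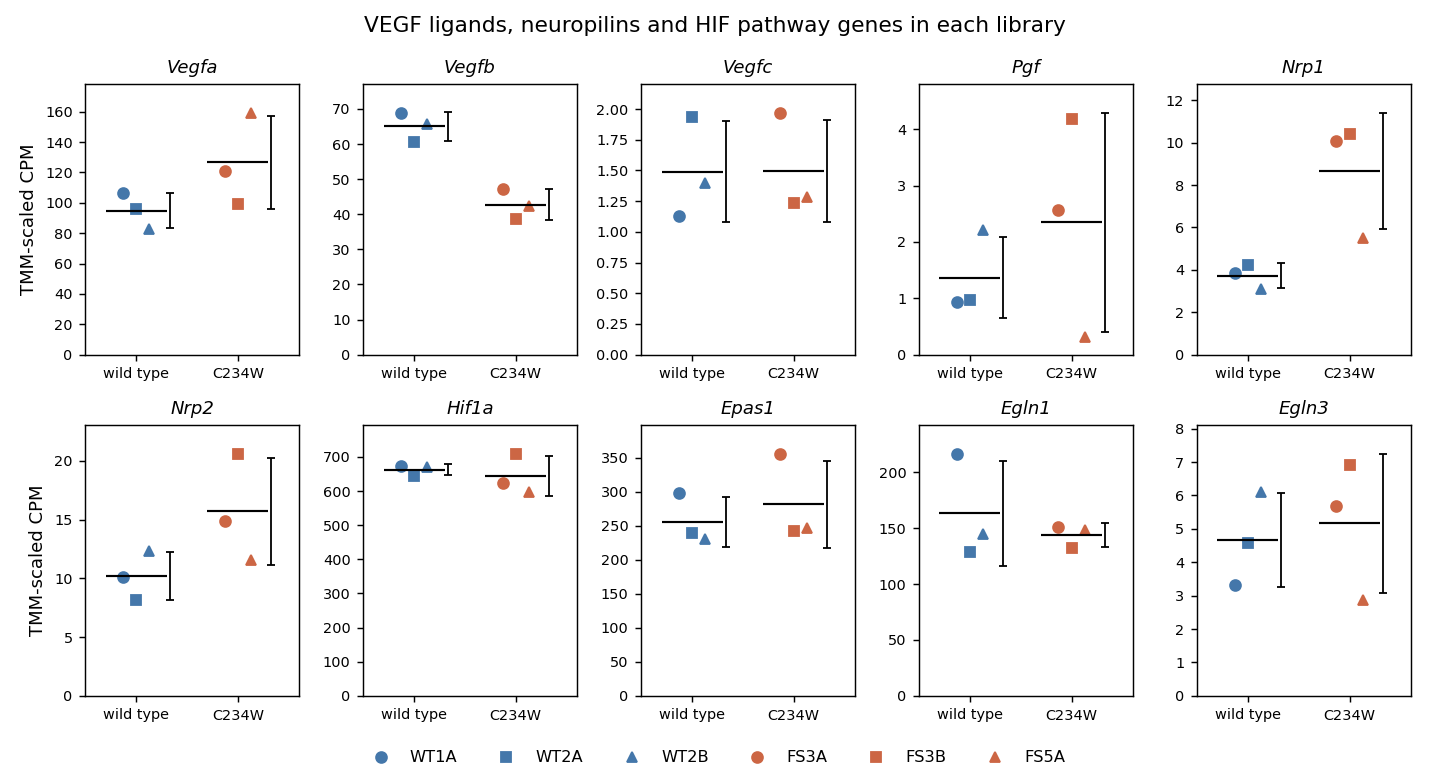
TMM-scaled CPM of each gene in the 3 wild-type libraries (blue) and the 3 C234W libraries (orange), with the mean as a horizontal line and the SD as a bar beside it. The genotypes do not overlap for Vegfb and Nrp1; for the other 8 genes at least 1 C234W library lies within the wild-type range or the reverse.

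Among the ligands, Vegfa is the main driver of vessel growth and permeability. It lies on chromosome 17 (46016994 to 46032377, minus strand, mm10) and was counted in NM_001317041. Vegfa was measured at 106, 95.8 and 82.7 CPM in wild type and at 121, 99.3 and 159 CPM in C234W. Only FS3B lay within the wild-type range, and FS5A was the highest of the 6 libraries. This gave a log2 fold change of 0.41 (SE 0.20), which missed the threshold (edgeR adjusted p = 0.225). It was above 0 under each of 17 alternative settings, from 0.21 without FS5A to 0.59 with scaling to total counts, and passed under none of them.

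Vegfb, a ligand of Flt1 linked to survival of neurons and vessels more than to their growth, lies on chromosome 19 (6982472 to 6987651, minus strand). It was at 68.9, 60.5 and 65.6 CPM in wild type and at 47.2, 38.6 and 42.4 CPM in C234W. The 3 C234W libraries lay below the 3 of wild type, with means of 42.7 ± 4.32 and 65.0 ± 4.25 CPM (SD, n = 3 each). The difference, a log2 fold change of -0.61 (SE 0.15) or a 1.52-fold lower level, missed the threshold in edgeR (adjusted p = 0.0659), while DESeq2 gave an adjusted p of 0.0116. Without WT1A, edgeR called Vegfb as lower (log2 fold change -0.56, adjusted p = 0.0404), in a fit that called 18.5% of all genes and 9.39% as lower. Each result given without WT1A rests on WT2A and WT2B as the only wild-type libraries, which share a name number and were the most alike pair (chi-square per degree of freedom 9.98 between their counts, against 30.6 to 112 for the other 14 pairs). Its counted transcript, at 1273 bases, is the shortest among the members, and with the trend on transcript length removed the log2 fold change was -0.31 (adjusted p = 0.287).

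Vegfc, the ligand of the lymphatic receptor Flt4, and Pgf, placental growth factor, were low. Vegfc, on chromosome 8 (54077532 to 54186454, plus strand), had 17 to 36 counts per library. Its levels were 1.13, 1.94 and 1.40 CPM in wild type and 1.97, 1.23 and 1.28 CPM in C234W, with a log2 fold change near 0 (SE 0.39). Pgf, on chromosome 12 (85166639 to 85177313, minus strand), had between 5 and 88 counts. It was at 0.930, 0.969 and 2.21 CPM in wild type and at 2.57, 4.17 and 0.305 CPM in C234W. The highest and the lowest library were both C234W, FS3B and FS5A, and the log2 fold change of 0.81 had an SE of 0.75 (edgeR adjusted p = 0.529); without FS3B it was 0.10.

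The neuropilins had the higher values in C234W. Nrp1, which binds VEGF-A and semaphorin 3A, lies on chromosome 8 (128359073 to 128505475, plus strand). It was at 3.85, 4.25 and 3.09 CPM in wild type and at 10.1, 10.4 and 5.49 CPM in C234W. Its gene model holds a microRNA, Mir1903, on the same strand. The genotypes did not overlap, FS3A and FS3B were more than 2 times the highest wild-type library, and FS5A was nearest to it. The log2 fold change of 1.21 (SE 0.32), a 2.32-fold difference, was the largest among the members in size. It did not pass in edgeR (adjusted p = 0.0703), and DESeq2 gave an adjusted p of 0.00753. With the length trend removed it was 1.01 (edgeR adjusted p = 0.161), the 1 member then at an unadjusted p under 0.05, where 19.3% of all genes were.

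Nrp2, which binds VEGF-C and semaphorin 3F, lies on chromosome 1 (62703317 to 62818692, plus strand). It was at 10.1, 8.18 and 12.3 CPM in wild type and at 14.9, 20.6 and 11.6 CPM in C234W. FS3B was again high and FS5A lay within the wild-type range. The log2 fold change was 0.63 (SE 0.27, edgeR adjusted p = 0.188), and 0.38 with the length trend removed. The neuropilins have the longest counted transcripts of the members, 5901 bases for Nrp1 and 6720 for Nrp2.

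Several lists of cell type markers had summed levels that differed in range between the genotypes, although no gene on any marker list passed in edgeR. The 8 endothelial markers summed to 45.3 to 69.7 CPM in wild type and to 75.5 to 89.5 CPM in C234W, without overlap. Of the 8, 6 lay above 0 (52.0% of all genes), the exceptions being Egfl7 (-0.26) and Slco1c1 (-0.062). For 3 (Esam, Pecam1 and Erg) each C234W library lay above each of wild type, against 12.6% of all genes. The lowest sum was that of WT1A. Without WT1A 5 of the 8 lay above 0 (7893 of 14988 genes), and the list median was 0.22, against 0.51 with all 6 libraries. The 5 erythrocyte markers, the sign of blood in the tissue, lay below 0 and summed to 71.2 to 141 CPM in wild type and 37.0 to 49.6 CPM in C234W. With all 6 libraries, 4 of 5 were at an unadjusted p under 0.05 (13.5% of all genes were, on the lower side). DESeq2 called 4 of the 5 (11.9% of all genes). These 4, the globin genes, are counted over only 554 to 626 bases. The list median moved from -1.10 to -0.56 once the trend on transcript length was taken out. All 5 still lay below 0 in that fit, but 0 of 5 were at an unadjusted p under 0.05. The models of Hba-a1 and Hba-a2 overlap in position and had near-equal counts (198 and 198 in WT1A, 475 and 472 in WT2A). They are therefore not separate measurements in the sum or in these numbers of genes. The 4 astrocyte markers summed to 266 CPM in FS3A and 122 CPM in FS3B and to 37.7 to 67.1 CPM in the other 4 libraries, a sum made up mostly of Gfap, also a gene of reactive Müller glia. Gfap was at 248 and 99.4 CPM in FS3A and FS3B, the libraries with the highest Nrp1, and at 20.4 to 46.8 CPM elsewhere. S100b (log2 fold change -0.45) and Pax2 (-0.63) lay on the other side and Pdgfra on the same (0.47). The 6 Müller glia markers summed to 4199 to 5528 CPM in wild type and 3216 to 3887 CPM in C234W, mostly from Glul, with Rlbp1, Apoe and Glul below 0 and Aqp4 (0.59), Vim (0.17) and Slc1a3 (0.019) above. The 5 rod markers summed to 87750 to 137000 and 58710 to 77630 CPM, and the 5 ganglion cell markers to 1527 to 1890 and 1264 to 1517 CPM, both without overlap. No marker on these lists was at 0 in all libraries. Their part in the values of the members was not tested. In bulk tissue, fewer cells of a type and less RNA per cell cannot be told apart.

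The HIF alpha subunits were abundant and close between the genotypes. Hif1a, on chromosome 12 (73907867 to 73947554, plus strand), was at 673, 645 and 671 CPM in wild type and at 623, 709 and 597 CPM in C234W. C234W libraries lay on both sides of the wild-type range. The log2 fold change was -0.044 (SE 0.15, edgeR adjusted p = 0.883), the smallest in size after that of Vegfc. Epas1, which encodes HIF-2 alpha and is known from endothelial and glial cells, lies on chromosome 17 (86753864 to 86833410, plus strand). It was at 298, 239 and 230 CPM in wild type and at 356, 243 and 247 CPM in C234W, a log2 fold change of 0.14 (SE 0.20, edgeR adjusted p = 0.689). WT1A and FS3A were the high libraries, 1 of each genotype.

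Egln1, the main oxygen-sensing prolyl hydroxylase, lies on chromosome 8 (124908587 to 124949254, minus strand). It was at 216, 128 and 145 CPM in wild type and at 151, 132 and 149 CPM in C234W. WT1A, the library with the high pigment epithelium markers, was the highest, and the other 5 libraries lay between 128 and 151 CPM. The log2 fold change of -0.18 (SE 0.21, edgeR adjusted p = 0.610) turned to 0.082 without WT1A. Egln3, an isoform that HIF induces, which lies on chromosome 12 (54178981 to 54203874, minus strand), was at 3.32, 4.58 and 6.11 CPM in wild type and at 5.69, 6.93 and 2.87 CPM in C234W. Here too C234W libraries lay at both ends, with a log2 fold change of 0.15 (SE 0.38, edgeR adjusted p = 0.835).

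**Figure D3:**
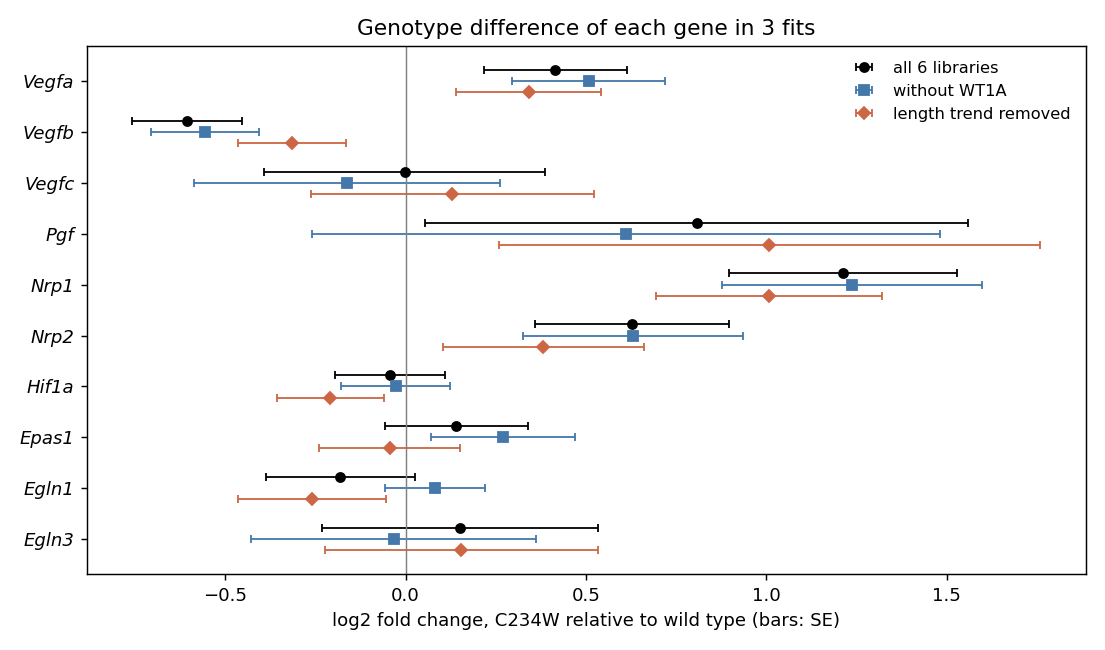
Log2 fold change of each gene, C234W relative to wild type, with its SE, in the fit of all 6 libraries (black), without WT1A (blue) and with the trend on transcript length removed (orange). Vegfb lies below 0 and Vegfa, Nrp1, Nrp2 and Pgf above 0 in each of the 3 fits, while Epas1, Egln1, Egln3 and Vegfc cross it.

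Pgf, Egln3, Nrp2 and Nrp1 shared an order of the C234W libraries that the rule for members did not use. In each of the 4, FS3B was the highest, FS3A the second and FS5A the lowest C234W library, and FS5A was also the lowest of all 6 libraries for Pgf and Egln3. Nrp1 was close between FS3B and FS3A (10.4 and 10.1 CPM), and Pgf had 5 counts in FS5A. Vegfc, also a member of the low class, did not share the order, with FS3A at 1.97, FS5A at 1.28 and FS3B at 1.23 CPM. The share of all genes with the shared order was not determined, so the order gives no result about the members. Vegfa had the reverse of it, with FS5A highest and FS3B lowest. Among the other 4 abundant members FS3A was the highest C234W library for Epas1, Egln1 and Vegfb, and FS3B for Hif1a.

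Transcript length moved with genotype over all genes. The tested genes were divided by the length of the counted transcript into 5 classes of near-equal size. The median log2 fold change was -0.34 in the class with the shortest transcripts (up to 1671 bases) and 0.28 in that with the longest (from 4985 bases). Vegfb and Pgf fall in the first, and Nrp1, Nrp2 and Epas1 in the last. With the trend removed, the log2 fold changes of Vegfb, Nrp1, Nrp2 and Epas1 were -0.31, 1.01, 0.38 and -0.044, against -0.61, 1.21, 0.63 and 0.14 without removal. Pgf, at 1590 bases, lay above 0 in both fits and went from 0.81 to 1.01 with the trend removed. Vegfa, at 3449 bases, is near the middle and went from 0.41 to 0.34.

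**Figure D4:**
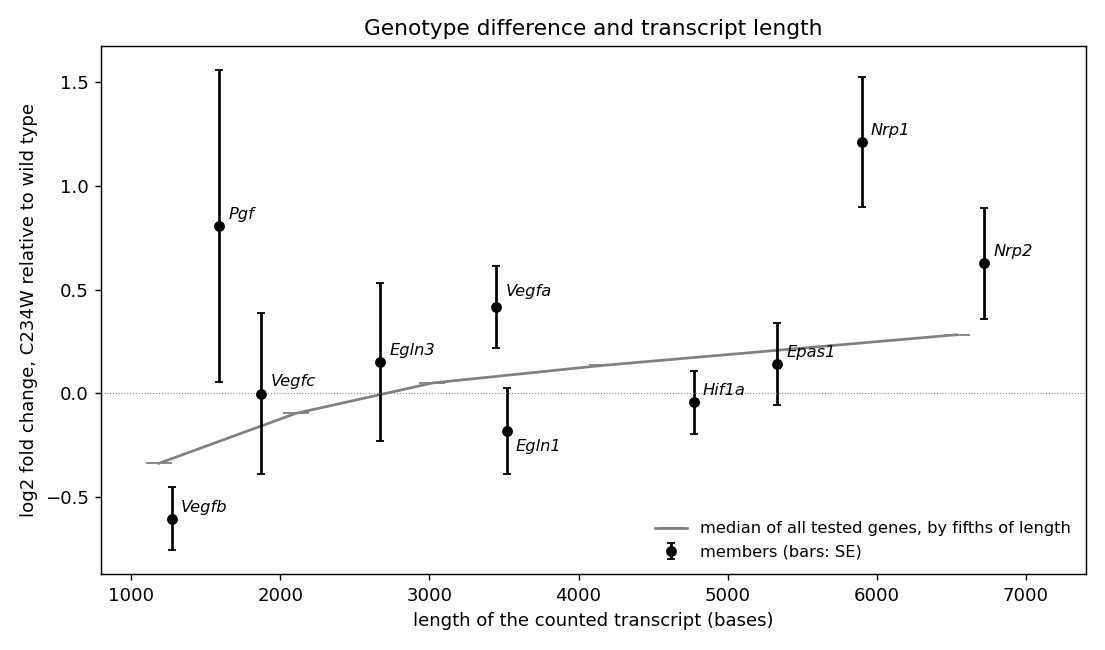
Log2 fold change of each gene (black, with SE) against the length in bases of its counted transcript, with the median of all tested genes in each of the 5 length classes in grey. The shortest member, Vegfb, and the longest, Nrp1 and Nrp2, deviate in the directions of the grey line and lie beyond it.

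The receptors and the angiopoietin system were described by a list of 8 genes, of which 7 were tested. None passed in edgeR, 2 were at an unadjusted p under 0.05, both higher in C234W (11.9% of all genes), and DESeq2 called 1 (11.9% of all genes). The median log2 fold change was 0.57, with 7 of 7 above 0 (52.0% of all genes). With the length trend removed 6 of 7 lay above 0 (7396 of 14685 genes). Without WT1A 6 of 8 tested lay above 0 (7893 of 14988 genes), with Tek at -0.23 and Tie1 at -0.33. Flt1, the high-affinity receptor whose soluble form traps VEGF-A, was at 117, 87.3 and 91.3 CPM in wild type and at 158, 149 and 127 CPM in C234W (log2 fold change 0.55, SE 0.17, edgeR adjusted p = 0.0963). Its groups did not overlap, and without WT1A it passed (0.70, edgeR adjusted p = 0.0212). In that fit 1 of the 8 tested genes passed, as higher, against 9.13% of all genes in that direction. Flt4 was at 6.10 ± 1.06 and 9.13 ± 1.01 CPM (SD, n = 3 each; log2 fold change 0.58, SE 0.24, edgeR adjusted p = 0.177). With the length trend removed, Flt1 was at 0.31 and Flt4 at 0.37, and 0 of the 7 were at an unadjusted p under 0.05.

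Of the partners of the neuropilins, 11 of 12 lay above 0 in C234W (52.0% of all genes), the exception being Sema3b at -0.23. With the length trend removed 10 of 12 did, against 7396 of 14685 genes. Of these 12 class 3 semaphorins and plexins tested, none passed in edgeR, 7 were at an unadjusted p under 0.05, all higher, and DESeq2 called 3. Over all genes 11.9% were at such a p and higher, and DESeq2 called 11.9%. The median log2 fold change was 0.66. Sema3g, a semaphorin of arterial endothelium, was at 1.40, 2.85 and 1.69 CPM in wild type and at 5.48, 6.40 and 6.71 CPM in C234W (log2 fold change 1.63, SE 0.34, edgeR adjusted p = 0.052). Plxna3, a plexin that pairs with neuropilins in axon guidance, was at 14.2, 11.9 and 9.05 CPM and at 26.4, 22.8 and 20.1 CPM (0.98, SE 0.22, edgeR adjusted p = 0.0576). For both, the lowest C234W library lay above the highest of wild type. Of the 12, 6 had groups that did not overlap, all higher, against 12.6% of all genes. Without WT1A 5 of the 12 passed, all higher, against 9.13% of all genes in that direction. With the length trend removed the median was 0.35. In that fit 3 were at an unadjusted p under 0.05, all higher, against 1228 of 14685 genes in that direction.

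In the list of HIF machinery, none of 15 genes passed in edgeR, 7 were at an unadjusted p under 0.05, all lower, and DESeq2 called 5. Over all genes 13.5% were at an unadjusted p under 0.05 and lower, and DESeq2 called 11.9%. The same 7 had groups that did not overlap, against 16.4% of all genes in that direction, while the median of the list was 0.054, since the other 8 lay above 0. Of the 7, 4 are parts of the ubiquitin ligase that recognises hydroxylated HIF: Vhl (66.1 ± 13.5 and 41.8 ± 4.83 CPM), Elob (106 ± 3.76 and 67.4 ± 12.5 CPM), Eloc (88.7 ± 7.98 and 64.4 ± 4.93 CPM) and Rbx1 (132 ± 9.43 and 91.1 ± 5.96 CPM, SD, n = 3 each, wild type first). Their scaffold Cul2 was at 31.4 ± 4.85 and 37.5 ± 3.59 CPM (SD, n = 3 each). The smallest p belonged to Siah1a and Siah2, ubiquitin ligases that degrade prolyl hydroxylases, with log2 fold changes of -1.13 (SE 0.27) and -0.88 (SE 0.21) and edgeR adjusted p of 0.0621 and 0.063. Siah1a has a near-identical copy, so its level is uncertain where only uniquely mapped tags are counted.

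Removing the length trend altered these values unevenly. With the length trend removed, Elob, counted over 502 bases, went from -0.66 to -0.098, Rbx1 from -0.53 to -0.34 and Eloc from -0.46 to -0.37. Vhl was at -0.66 in both fits (edgeR adjusted p = 0.147 with the trend removed). With the trend removed 5 of the 15 were at an unadjusted p under 0.05, all lower, against 1606 of 14685 genes in that direction. Without WT1A, 6 of the 15 passed, all lower, against 9.39% of all genes in that direction, with Vhl at -0.81 (edgeR adjusted p = 0.0155).

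Of 28 listed HIF target genes 26 were tested, none passed in edgeR, 6 were at an unadjusted p under 0.05 and higher, 2 were at such a p and lower, and DESeq2 called 5; the median log2 fold change was 0.12. The shares over all genes were 11.9% higher, 13.5% lower and 11.9% called by DESeq2. With scaling to total counts 11 of the 26 were at an unadjusted p under 0.05 and higher and 0 lower, against 23.1% and 6.47% of all genes. Kdm3a, a histone demethylase induced by hypoxia, was at 49.9, 43.3 and 40.3 CPM in wild type and at 90.0, 66.1 and 82.1 CPM in C234W (log2 fold change 0.83, SE 0.17, edgeR adjusted p = 0.0518). Ero1l, an oxidase of the endoplasmic reticulum, was at 22.5 ± 1.82 and 37.2 ± 4.23 CPM (SD, n = 3 each; 0.73, SE 0.17, edgeR adjusted p = 0.0576). For both genes each C234W library lay above each wild-type library. With the length trend removed they were at 0.67 and 0.59. Hk2, hexokinase 2, was at 971 CPM in WT1A, 162 and 203 CPM in the other wild-type libraries and 415 to 818 CPM in C234W. Its log2 fold change of 0.36 (SE 0.66, edgeR adjusted p = 0.769) became 1.65 without WT1A (edgeR adjusted p = 0.0159). Without WT1A, 8 of the 26 passed as higher and 3 as lower, against 9.13% and 9.39% of all genes.

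**Figure D5:**
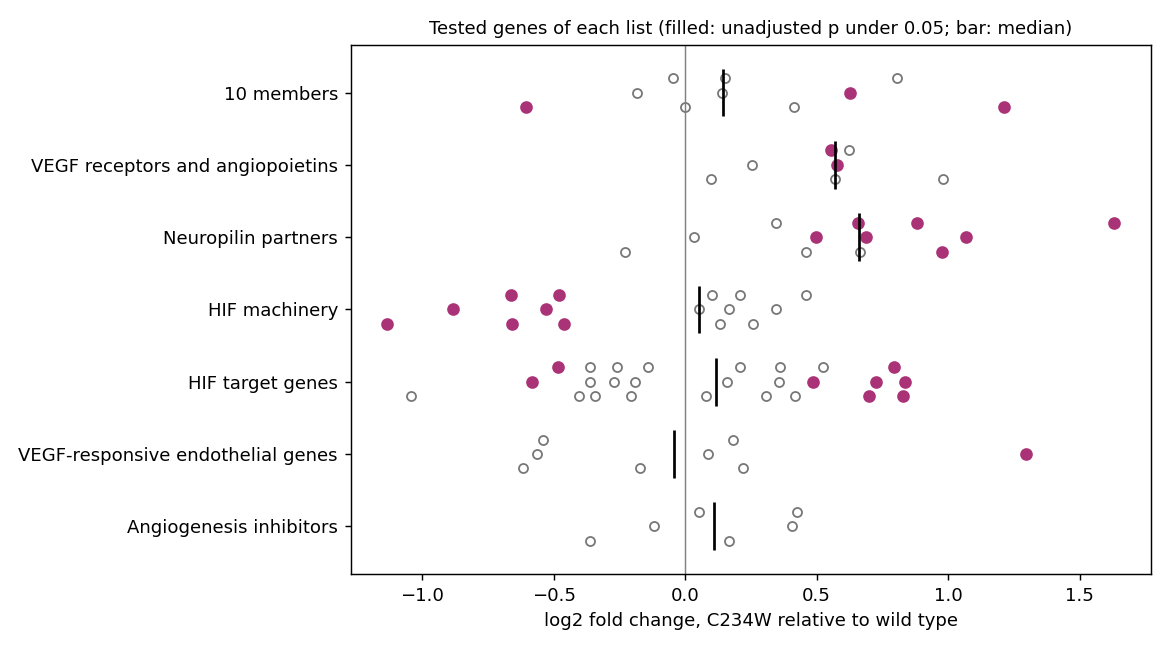
Log2 fold change, C234W relative to wild type, of each tested gene in the members and in 6 lists of the pathway, with genes at an unadjusted p under 0.05 filled and the list's median as a bar. In the neuropilin partners the filled genes lie above 0, in the HIF machinery below 0, and in the HIF targets on both sides.

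The VEGF-responsive endothelial genes and angiogenesis inhibitors had list medians near 0 with all 6 libraries. Of 8 tested responsive genes none passed in edgeR, with a list median of -0.042. At an unadjusted p under 0.05 there was 1 (25.4% of all genes), and DESeq2 called that 1 (11.9% of all genes). It was Nos3, endothelial nitric oxide synthase, at 8.44, 4.84 and 3.38 CPM in wild type and at 16.2, 12.3 and 12.4 CPM in C234W (log2 fold change 1.30, SE 0.33, edgeR adjusted p = 0.0692). Hey1, a target of Notch signalling, was next, at 17.4 ± 6.01 and 11.4 ± 2.93 CPM (SD, n = 3 each), with an edgeR adjusted p of 0.243. Without WT1A 2 of the 8 passed as higher and 1 as lower, against 9.13% and 9.39% of all genes. Those higher were Nos3 (log2 fold change 1.73, edgeR adjusted p = 0.0128) and Nid2 (1.83, edgeR adjusted p = 0.0302). The lower one was Hey1 (-0.87, edgeR adjusted p = 0.0434). Of 6 inhibitors of angiogenesis none passed in edgeR, none was at an unadjusted p under 0.05, and DESeq2 called 0. Those with the smallest p were Col18a1, the source of endostatin, at 21.9 ± 9.10 and 29.0 ± 5.67 CPM, and Vash1, vasohibin, at 61.6 ± 11.7 and 69.2 ± 6.97 CPM (SD, n = 3 each; edgeR adjusted p = 0.398 and 0.577). The median of the inhibitors was 0.11 with all libraries and 0.67 without WT1A. In the fit without WT1A 4 of 6 were at an unadjusted p under 0.05, all higher, against 2830 of 14988 genes. There 2 of 6 passed as higher, Thbs1 and Col18a1, against 9.13% of all genes. Col18a1 was then at a log2 fold change of 0.80 (edgeR adjusted p = 0.0378).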

How the data were processed

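The deposited table holds estimated counts per gene, not normalized by the authors, per the file headers, in steps of 0.5. Libraries were strand-specific and aligned by STAR to mm10, and exonic tags that map once were then counted by HOMER on 1 strand, for a single isoform at each locus, per the series' design text. The submitters' processing notes give STAR 2.7.8a. The authors ran their own test with DESeq, per the same text. A gene's value thus depends on the isoform kept, and its splice forms are not separated.

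Counts were rounded to whole numbers, filtered with filterByExpr, scaled by TMM and compared with the quasi-likelihood test of edgeR (4.0.16, R 4.3.3; robust fit, no covariate) over 14685 genes, with Benjamini-Hochberg adjustment and a threshold of 0.05. The SE is the log2 fold change divided by the root of its F statistic. Alternatives used DESeq2 (1.42.0), limma-voom (3.58.1), other scalings and filters, a loess trend on transcript length removed from each library (span 0.3), and leaving out each library. No pair of libraries agreed within sampling noise (chi-square per degree of freedom of 9.98 for WT2A and WT2B and 30.6 to 112 for the other 14 pairs). On data simulated for this comparison (14539 genes tested), the share recovered by edgeR was 42% for changes of 2-fold and 93% for those of 4-fold. Of its 149 calls 14 were false. The simulated libraries were independent, with no trend on transcript length and none set apart as WT1A was. Changes were placed only in genes above a minimum level. These shares may therefore not hold for the deposited libraries.

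The text names the 10 members, Elovl2 and, from each pathway list, the 2 genes with the smallest p; the other genes named were chosen after their values were seen. The members, lists and alternatives were chosen with earlier results of these data known.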

Additional observations from a re-analysis of the deposited data

How the results depend on the processing

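Of 170 values of single members under alternative settings, 152 kept their sign. The number of genes called over the whole table, 215, was 0 with RLE, upper-quartile or total-count scaling, with the length trend removed and with WT2A and WT2B, and FS3A and FS3B, each summed into 1 library, 353 with no filter on low counts and 1754 with DESeq2. Leaving out 1 library gave 0 to 2775 called genes (2775 without WT1A). Among the members, 0 were called by edgeR with all libraries, 2 with DESeq2 and 0 to 1 with 1 library left out (Vegfb, without WT1A). Scaling to total counts moved the median of all genes from 0.023 to 0.20 on the log2 scale. It gave 0.14 for Hif1a and 0.016 for Egln1, both below the shifted median. Vegfc, at -0.0021, was at 0.0029 with RLE, 0.0086 with upper-quartile and 0.16 with total-count scaling, 0.0045 with no filter, 0.0029 with DESeq2, 0.0068 with counts not rounded and 0.13 with the length trend removed; Epas1 was at -0.044 with that trend removed. With 1 library left out, the log2 fold change ran from -0.25 to 0.25 for Vegfc, from -0.12 to 0.0057 for Hif1a, from -0.061 to 0.27 for Epas1, from -0.32 to 0.082 for Egln1 and from -0.12 to 0.44 for Egln3. For other members these ranges were 0.21 to 0.56 for Vegfa, -0.68 to -0.54 for Vegfb, 0.10 to 1.32 for Pgf, 1.06 to 1.45 for Nrp1 and 0.38 to 0.80 for Nrp2. The cause of these shifts was not tested. No paired analysis was possible because the count columns carry no replicate number of the labels. Depth limits Pgf, Vegfc, Nrp1 and Egln3, which had 5 to 220 counts per library.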

Other observations

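Per kilobase, Flt1 was at 14.4 CPM in wild type and 21.1 CPM in C234W (means over 3 libraries), above Kdr, the main signalling receptor for VEGF-A, at 9.78 and 14.5 CPM, and above the endothelial marker Pecam1, at 3.81 and 6.12 CPM. The counts do not separate the membrane form of Flt1 from the soluble form. Among the angiogenesis inhibitors, Thbs1, thrombospondin 1, was at 55.0 CPM in WT1A, 2.37 and 1.91 CPM in WT2A and WT2B, and 23.1, 19.9 and 11.5 CPM in FS3A, FS3B and FS5A. Its log2 fold change was -0.12 (SE 1.16, edgeR adjusted p = 0.963) with all libraries and 3.08 (edgeR adjusted p = 0.0124) without WT1A.

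The hydroxylases that HIF induces to modify collagen had values in the direction of Kdm3a. P4ha1 was at 22.9, 26.9 and 22.4 CPM in wild type and at 48.8, 41.7 and 34.7 CPM in C234W (log2 fold change 0.79, SE 0.18, edgeR adjusted p = 0.0576), and P4ha2 at 10.2 ± 0.236 and 14.3 ± 0.766 CPM (SD, n = 3 each; edgeR adjusted p = 0.157). Ndrg1, another HIF target, was on the lower side, at 272 ± 4.66 and 195 ± 15.5 CPM (SD, n = 3 each; log2 fold change -0.48, SE 0.14, edgeR adjusted p = 0.0881). These genes were chosen after their values were seen.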
